A study of Mus musculus with 6 samples.

Results

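NG2 cells, also called oligodendrocyte progenitor cells (OPCs), were 692 of the 22796 nuclei that the deposited annotation of the mouse suprachiasmatic nucleus (SCN) assigns to a cluster. The members are all nuclei that this annotation places in the cluster of NG2/oligodendrocyte progenitor cells. The SCN is the hypothalamic clock and lies directly above the optic chiasm. It was dissected from wild-type C57BL6/J mice at gestational day 17.5 (GD17.5) and at postnatal days 2, 10 and 30 (PND2, PND10 and PND30), and nuclei were profiled by single-nucleus RNA sequencing (snRNA-seq) in 6 libraries. PND10 and PND30 were sequenced as 2 libraries and the earlier stages as 1. Tissue of males and females from several mothers was pooled for each stage, and no group carried a treatment or an altered allele. The methods give a repeat of library preparation for PND10 and PND30, made to recover more nuclei, and do not describe separate animals for it. The tests below therefore measure the spread between libraries, which may be technical and may not cover differences between animals.

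OPCs carry the proteoglycan NG2 (Cspg4), the PDGF receptor Pdgfra, through which PDGF drives their proliferation, and the transcription factor Olig2, which the oligodendrocyte lineage needs for its specification. They divide, migrate and give rise to the oligodendrocytes that myelinate axons, and a part of them persists as progenitors in the adult brain. The study annotated its clusters from known markers and used Pdgfra to label NG2 cells and oligodendrocytes in tissue sections. The deposited matrices do not pair their 32285 rows (features, each a gene) with gene names. Cspg4, Pdgfra and Olig2 were therefore not analysed here, and no gene is named below.

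All 692 OPC nuclei could be placed in 1 library by barcode. GD17.5 gave 103 and PND2 183, PND10 gave 77 in library 1 and 268 in library 2, and PND30 gave 15 and 46. Unique molecular identifiers (UMIs) count single RNA molecules. The OPC nuclei of GD17.5 held 573667 UMIs and those of PND2 920257, while the PND10 libraries had 547317 and 1021076 and the PND30 libraries 116161 and 112460. PND30 is thus the stage with the fewest OPC nuclei and UMIs. The barcodes of 8 of the 692 nuclei were also listed in another library, and none of them was an OPC there.

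The annotated cluster held distinct nuclei at the early stages, and this is given first because the other results rest on it. To score each nucleus, the 100 features most specific to OPCs were chosen in the PND10 libraries together, by their ratio to the next highest of 4 other classes (SCN neurons, astroglia, mature oligodendrocytes and microglia). The last feature inside this list had a log2 ratio of 1.18 and the first outside 1.17. Every nucleus with at least 1500 UMIs was thinned to 1500, and the share of these UMIs on the 100 features is its OPC-feature share. At PND10 and PND30, where 375 OPC nuclei could be scored, all but 7 had a share of at least 4%. At GD17.5 only 39 of 102 scored nuclei did (38.2%, exact 95% interval 28.8 to 48.4%), and 63 were below it. At PND2 the numbers were 137 of 181 (75.7%, 68.8 to 81.7%) and 44. Few nuclei lay between 3 and 5%, 6 at GD17.5 and 4 at PND2. The value of 4% was chosen after the distribution had been seen, and the nuclei on each side of it are ranges of a score and not cell types.

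**Figure D1:**
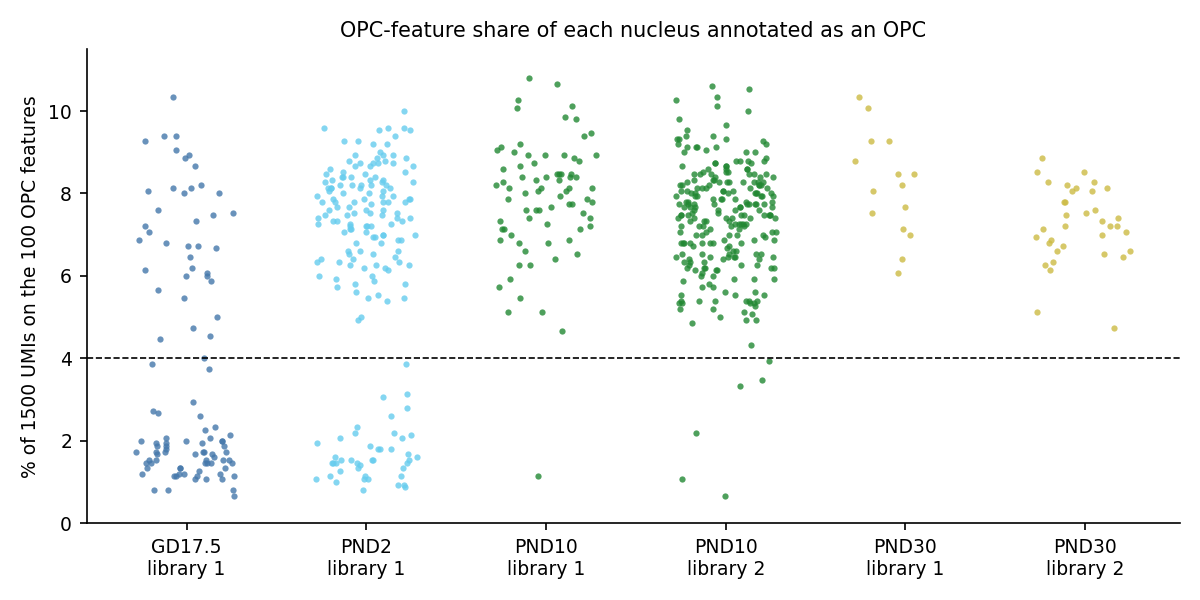
Share of 1500 UMIs on the 100 OPC features (y axis, %) for each scored nucleus of the OPC cluster (points, spread sideways for visibility) in the 6 libraries (x axis), with a dashed line at 4%. At GD17.5, 63 of 102 nuclei lie below the line, at PND2 44 of 181, and at PND30 none of 51.

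The OPC-feature share of the nuclei on each side of 4% is set by that value and is given as a description. The nuclei below it had a median of 1.60% at GD17.5 and 1.53% at PND2. In the cluster of immature astrocytes/ependymal cells, the glia that give rise to astrocytes and line the ventricle, it was 1.53% and 1.20% in the same libraries. The OPC nuclei at or above 4% had medians of 7.07% and 7.73%, and the whole cluster had 8.07% and 7.47% at PND10 and 8.20% and 7.20% at PND30. SCN neurons had medians of 2.47% and 2.00% at the early stages, and 8.84% of them at GD17.5 and 3.40% at PND2 reached 4%, so the score alone does not mark an OPC outside the cluster.

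The astroglial features, 100 features chosen in the same way, ran the other way. Nuclei of the OPC cluster below 4% had medians of 0.933% of UMIs on them at GD17.5 and 1.93% at PND2. Those at or above 4% had 0.133% and 0.200%, and immature astrocytes/ependymal cells had 1.47% and 2.53%. The nuclei below 4% thus lay between the 2 other groups in both libraries, nearer to the immature astroglia. Their medians for mature oligodendrocyte features were 0.467% and 0.600%, against 0.800% at both stages in the nuclei at or above 4%. Depth did not separate the groups in one direction. The nuclei below 4% had a median of 4774 UMIs and those above 5395 at GD17.5, and at PND2 6000 and 4457.

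**Figure D2:**
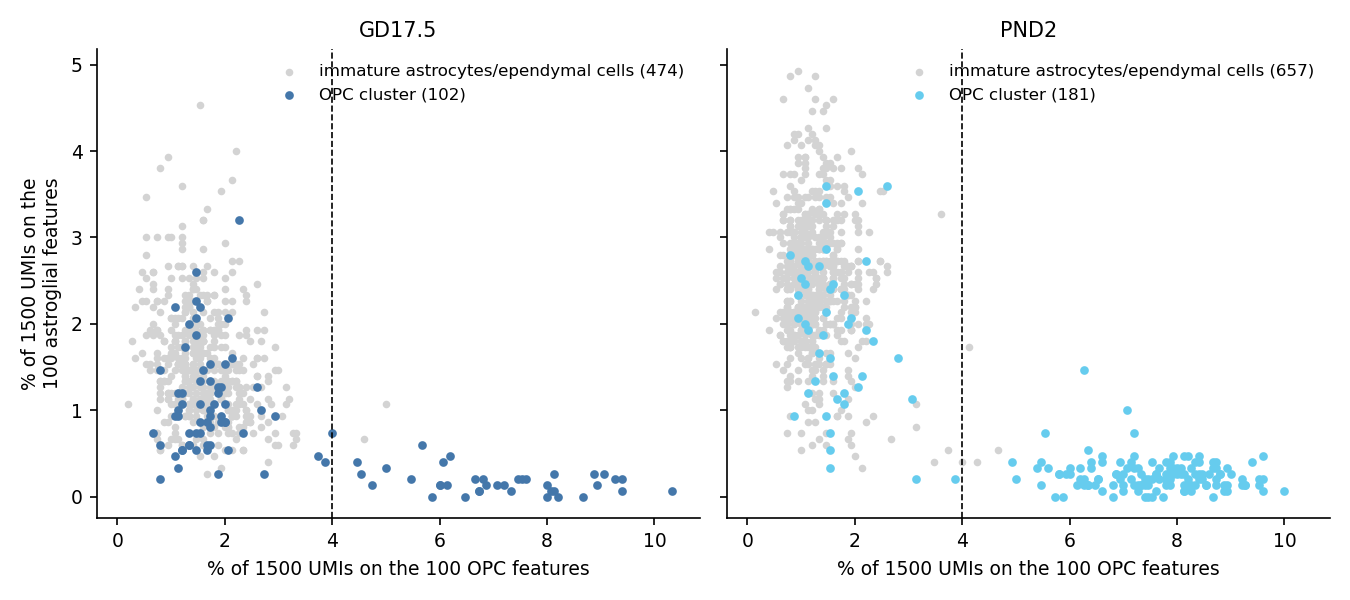
Share of 1500 UMIs on the 100 OPC features (x axis, %) against the share on the 100 astroglial features (y axis, %) at GD17.5 and PND2. Points are nuclei of the OPC cluster (coloured) and of immature astrocytes/ependymal cells (grey), and the dashed line marks 4%. The coloured points below the line, with medians of 0.933% and 1.93% on the y axis, overlap the grey ones.

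Profiles over features in none of the 5 lists of class features gave the same order. They were compared between equal numbers of nuclei, 39 per group at GD17.5 and 44 at PND2, as Pearson correlations of log2(CPM + 10), where CPM scales the UMIs of a profile to a common total, across features, which are not independent replicates. At GD17.5, over 4375 features, nuclei below 4% correlated at 0.634 with immature astrocytes/ependymal cells, at 0.497 with the OPC nuclei at or above 4% and at 0.378 with SCN neurons. At PND2, over 4172 features, these values were 0.661, 0.580 and 0.422. The nuclei at or above 4% correlated at 0.479 with immature astrocytes/ependymal cells and at 0.531 with SCN neurons at GD17.5. At PND2 they correlated at 0.485 and 0.578. Separate draws of immature astroglia correlated at 0.757 and 0.782 with each other, so the nuclei below 4% were not alike to them to the level of a redraw. The nuclei share their library and its free RNA.

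Some features were high in nuclei below 4% and low in the groups they were set against. The 50 features most specific to them at PND2, against the nuclei at or above 4%, immature astroglia and SCN neurons, took a median of 0.600% of their UMIs at GD17.5, a library not used to choose them. This was 0.133% in the GD17.5 nuclei at or above 4%, 0.0667% in immature astroglia and 0 in SCN neurons, and 0.0667% in the 14 microglia, a class not used in the choice. At PND2 itself, 32 microglia had a median of 0.133% and a 90th percentile of 0.647%, so these features are not particular to the nuclei below 4%. Of the 50, 34 had their highest CPM in the nuclei below 4% at GD17.5, where 25.2% of all 4375 features did. In the other direction, of 50 features chosen at GD17.5, 24 had their highest CPM there at PND2, where 25.3% of 4172 features did. The median share of these was 0.133% in the PND2 nuclei below 4% and 0 in those at or above it, in immature astroglia and in SCN neurons, while microglia and mature oligodendrocytes had 0.0667%. Their median log2 ratio to the highest other group was 0 at PND2, against 1.09 at GD17.5 for the list chosen at PND2.

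The share of OPCs among all nuclei was highest at PND10. At GD17.5 OPCs were 2.09% of nuclei (exact Clopper-Pearson 95% interval 1.71 to 2.53%, counting error only) and 3.29% at PND2 (2.84 to 3.798%). The PND10 libraries had 5.66% (4.49 to 7.02%) and 5.69% (5.04 to 6.38%), a mean of 5.67% ± 0.0195 (SD, n = 2). The PND30 libraries had 1.95% (1.09 to 3.19%) and 0.841% (0.617 to 1.12%), a mean of 1.39% ± 0.781 (SD, n = 2). Both PND10 libraries were above all others, and the difference between PND10 and PND30 was 4.28 percentage points (exact permutation test, two-sided, p = 0.333, the smallest p that 2 libraries against 2 can give). GD17.5 and PND2 rest on 1 library each, and their intervals hold no spread between libraries.

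Counting only nuclei at or above 4%, of all nuclei with at least 1500 UMIs, the share was 0.809% before birth (0.576 to 1.10%), 2.51% at PND2 (2.11 to 2.96%), 5.70% and 5.33% for PND10, and 1.97% (1.11 to 3.23%) and 0.736% (0.516 to 1.02%) for PND30. The order of the stages up to PND10 did not change, while GD17.5 came to lie between the PND30 libraries in place of above both. The difference between PND10 and PND30 was 4.16 percentage points in this count (exact permutation p = 0.333).

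Shares depend on how many nuclei of other kinds a dissection holds. The OPC counts that follow are of the whole cluster, with the nuclei below 4% included. Among glial, microglial and endothelial nuclei only, OPCs were 16.6% before birth and 20.2% at PND2, then 17.3% and 26.6% for PND10 and 13.3% and 8.33% for PND30, and PND10 library 1 no longer lay above PND2. Per 100 SCN neurons there were 2.40 and 3.96 OPCs at the early stages, 16.1 and 10.99 for PND10, and 2.73 and 1.01 for PND30. Extra-SCN neurons, which lie outside the nucleus, entered mainly at PND10 and PND30. Without these and unidentified neurons the PND10 libraries had 8.35% and 7.78% OPCs and those of PND30 2.26% and 0.904%.

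**Figure D3:**
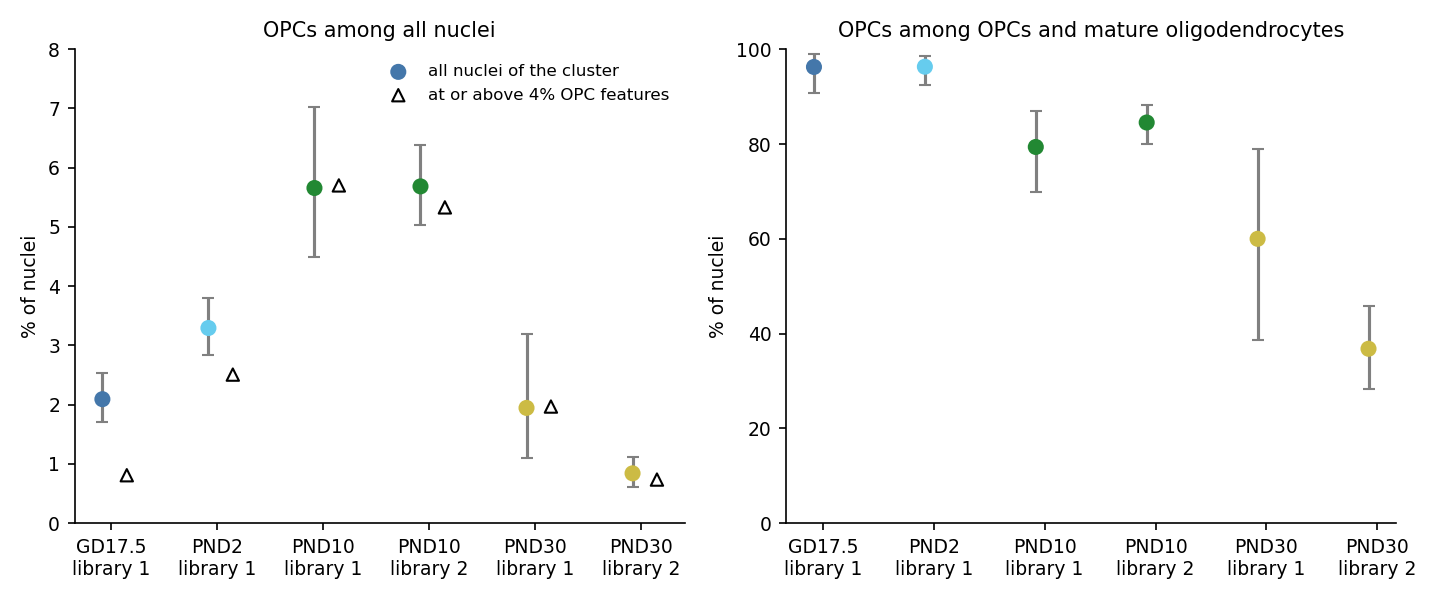
Left, OPCs as a percentage of all nuclei in each library (points, bars are exact 95% intervals), with open triangles for nuclei at or above 4% OPC-feature share among nuclei with at least 1500 UMIs. Right, OPCs (the whole cluster) as a percentage of OPCs and mature oligodendrocytes, from 96.3% at GD17.5 to 36.8% in PND30 library 2.

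Within the oligodendrocyte lineage, the balance moved from progenitors to mature cells. Mature oligodendrocytes, the myelinating cells, numbered 4 at GD17.5 and 7 at PND2, against 20 and 49 in PND10 and 10 and 79 in PND30 tissue. OPCs made up 96.3% of the lineage at both GD17.5 and PND2 (90.7 to 98.97% and 92.6 to 98.5%), 79.4% and 84.5% for PND10, and 60.0% (38.7 to 78.9%) and 36.8% (28.4 to 45.9%) at PND30. There were 25.8 and 26.1 OPCs per mature oligodendrocyte before PND10, 3.85 and 5.47 for PND10, and 1.5 and 0.582 for PND30. These counts are of the whole cluster and include the nuclei below 4%. Only 39 scored nuclei at GD17.5 and 137 at PND2 were at or above it. The like values of the 2 early stages therefore hold for the annotated cluster and not for those nuclei. The log2 ratio was 2.30 higher at PND10 than at PND30 (exact permutation test, two-sided, p = 0.333, the smallest possible with 2 libraries against 2). Mature oligodendrocytes were 1.47% and 1.04% of all nuclei in PND10 and 1.30% and 1.44% in PND30 tissue, so over this interval the OPC share changed more than theirs.

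Features specific to mature oligodendrocytes, chosen at PND10 like the OPC list, took the largest part of OPC UMIs at PND30. The share was 0.643% at GD17.5 and 0.764% at PND2. At PND10 it was 0.956% and 0.913%, at PND30 1.09% and 1.29%. All PND30 values lay above all earlier ones. The early sums include the nuclei below 4%. In nuclei at or above it, the median share at 1500 UMIs was 0.800% at GD17.5, at PND2 and in both PND10 libraries, and 1.13% and 1.27% at PND30. Over the same libraries the share of SCN-neuron features in OPCs went from 0.867% to 1.26% and 1.43%, and the part of free RNA from other nuclei in either was not tested. In SCN neurons, mature oligodendrocyte features took 0.676% of UMIs at GD17.5 and 0.480% and 0.492% at PND30. Astroglia had 0.521%, then 0.504% and 0.493%, and microglia 0.480%, then 0.466% and 0.540%.

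The 100 OPC features kept their place at PND30 and less so before birth. In the libraries not used to choose them, OPCs had the highest CPM of the 5 classes for 97 and 96 of 100 features at PND30, for 86 at PND2 and for 49 at GD17.5. Over all features with a mean of at least 10 CPM, OPCs were the highest class for 16.1% and 17.6%, 9.67% and 14.4%. The median log2 ratio to the next class was 1.84 and 2.04 at PND30, 0.88 at PND2 and -0.03 at GD17.5. The GD17.5 and PND2 sums include the nuclei below 4%.

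OPC profiles were least alike between GD17.5 and PND30 when the whole cluster was summed. At equal totals of 112460 UMIs, over 3965 features, the Pearson correlation across features was 0.767 between GD17.5 and PND2, and 0.788 and 0.789 between PND2 and the PND10 libraries. PND10 and PND30 libraries correlated between 0.815 and 0.829, near the 0.833 between the PND30 libraries and under the 0.854 between those of PND10. GD17.5 correlated at 0.647 and 0.649 with the PND10 libraries and at 0.571 and 0.526 with those of PND30. At the same total, SCN neurons of GD17.5 had 0.649 and 0.664 with PND10 and 0.600 and 0.604 with PND30. Astroglia had 0.595 and 0.586 with PND10 and 0.444 and 0.445 with PND30. The lower correlation with PND30 is thus not particular to OPCs. With only OPC nuclei at or above 4%, totals were 91937 UMIs and the 100 features of the score were left out. OPCs of GD17.5 then correlated with PND10 at 0.742 and 0.754, against 0.614 and 0.619 for as many nuclei drawn from the whole cluster. The nuclei at or above 4% were selected by features chosen at PND10, so a higher correlation with PND10 may be built in. In these nuclei the correlations of neighbouring stages were 0.778 from GD17.5 to PND2, 0.793 and 0.790 from PND2 to PND10 and 0.777 to 0.797 from PND10 to PND30. GD17.5 with PND30 was again the lowest, at 0.674 and 0.638. As many nuclei drawn from the whole cluster gave 0.539 and 0.491 there.

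A test of PND10 against PND30 gave few features. With edgeR (quasi-likelihood test, Benjamini-Hochberg adjusted p under 0.05), 2 of 6043 features passed (0.0331%), both higher at PND30, and 585 had an unadjusted p under 0.05. One of them had 98.7 and 109 CPM at PND10 and 465 and 453 CPM at PND30, a log2 difference of 2.16 (edgeR adjusted p = 0.00238). The other had 60.3 and 48.0 CPM against 327 and 311 CPM, a log2 difference of 2.61 (edgeR adjusted p = 0.00238). Both were picked by this test on these same values, so their separation is only a description. DESeq2 called 13 features, 12 of them higher at PND30, and leaving out any single library gave between 26 and 50, so the count is not a stable one. With only nuclei at or above 4% there were 40 (0.691%), and with as many nuclei drawn from the whole cluster 20 (0.344%).

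Over all stages many features had a slope. A linear term in stage rank, from GD17.5 to PND30, passed in 1257 of 8808 features (14.3%, edgeR adjusted p under 0.05), of which 629 rose and 628 fell. The balance depends on the processing, with 492 that rose and 821 that fell without a filter on low counts, and 165 and 94 with equal numbers of nuclei. The median slope was 0.64 log2 units per stage among those that rose and -0.74 among those that fell, against -0.0021 over all features tested. The features that rose together took 8.07% of OPC UMIs at GD17.5 and 14.0% at PND2, 20.1% and 19.4% for PND10, and 24.5% and 24.4% for PND30. Those that fell took 12.97%, 7.82%, 4.24% and 4.60%, and 3.42% and 3.00%. These shares describe features chosen by the same values. Of the features that fell, 98 and 168 had no UMI in the PND30 libraries, the shallowest of the 6.

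Fewer slopes passed without GD17.5, and with only nuclei at or above 4%. Without the GD17.5 library, 356 features passed. With only nuclei at or above 4%, and without the 100 features that define the score, 378 of 7049 features passed (5.36%, 209 rose and 169 fell), and 314 of them were among the 1257. As many nuclei per library, drawn from the whole cluster, gave 728 of 7102 (10.3%). The lower count with nuclei at or above 4% is thus under that of an equal number of nuclei, for 1 draw. The 4% value keeps early nuclei that score high on features chosen at PND10, so it selects for likeness to PND10. Leaving out the 100 features need not remove others that vary with them. The part of this selection in the lower count was not tested.

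Slopes of OPCs also differed from those of other classes in the same libraries. These classes change cluster over the stages, so the differences include such a change. Early SCN neurons were 94.3% of SCN neurons at GD17.5, 71.7% at PND2 and none later. Immature astrocytes/ependymal cells were 489 of 489 and 664 of 668 astroglia at the early stages, 104 of 318 and 7 of 641 at PND10 and none at PND30. Against SCN neurons, 1576 of 15799 features (9.98%) had a different slope in OPCs in an edgeR interaction test with the library as a block, 839 of them more positive in OPCs and 737 more negative. DESeq2 called 1025, of which 660 were more positive and 365 more negative, and equal numbers of nuclei gave 334 and 61. Against astroglia, the other macroglial lineage, 736 of 12613 features (5.84%) differed, 326 more positive in OPCs and 410 more negative. This balance turned with equal numbers of nuclei, to 129 and 64, without a filter on low counts, to 505 and 466, and with DESeq2, to 250 and 233. With only nuclei at or above 4% these counts were 745 (4.69%, 523 more positive and 222 more negative) and 312 (2.59%, 169 more positive and 143 more negative), with as many nuclei drawn from the whole cluster 1086 (6.78%) and 546 (4.51%), and without the GD17.5 library 651 and 316.

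**Figure D4:**
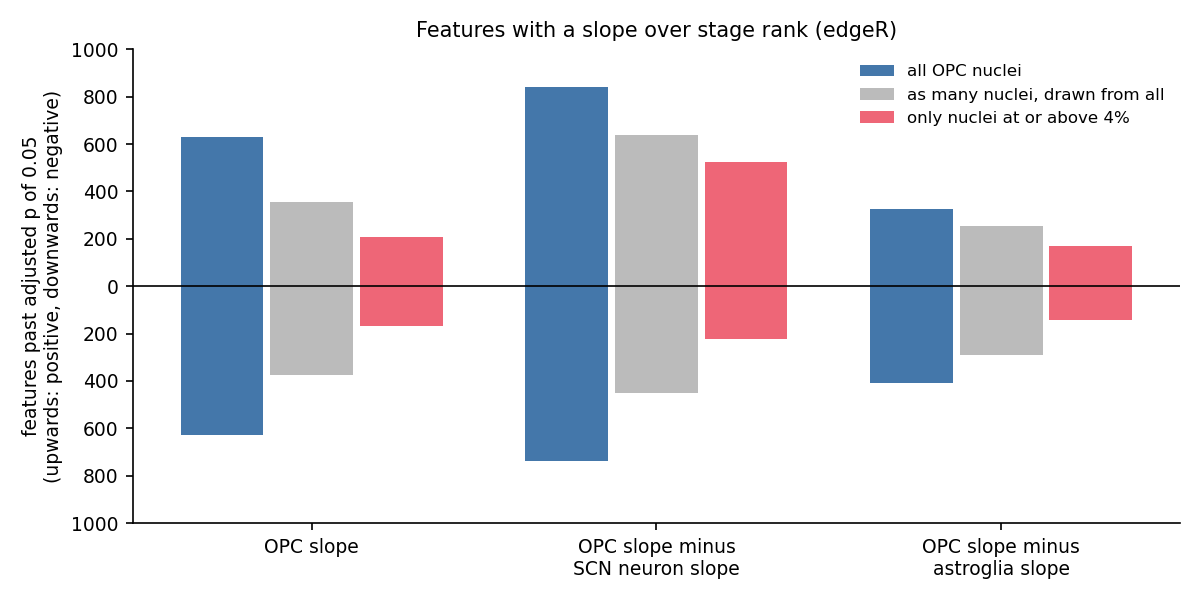
Number of features past an edgeR adjusted p of 0.05 (y axis) for the OPC slope over stage rank and its difference from SCN neurons and astroglia (x axis). Bars upwards are positive and bars downwards negative, for all OPC nuclei (blue), as many nuclei drawn from the whole cluster (grey) and only nuclei at or above 4% OPC-feature share (red). The OPC slope passed in 1257, 728 and 378 features.

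OPC nuclei held fewer UMIs than SCN neurons. The median per OPC nucleus was 4883 at GD17.5 and 4584 at PND2, against 6408 and 3641.5 for PND10 and 8945 and 2015.5 for PND30, with library 1 the deeper at both later stages. It was lower than the median of SCN neurons in 6 of 6 libraries, at ratios of 0.955, 0.925, 0.794, 0.834, 0.729 and 0.626 in the order of the libraries. The mean log2 ratio was -0.32 ± 0.23 (SD, n = 6, exact sign-flip permutation test, two-sided, p = 0.03125, the smallest that 6 pairs can give). With only nuclei at or above 4% OPC-feature share, of nuclei with at least 1500 UMIs, it was -0.27 (exact permutation p = 0.0625), and with features in place of UMIs -0.20 (exact permutation p = 0.0625), so that the call ends in both. In both, the OPC median was the higher at GD17.5 and the lower in every other library. The GD17.5 values were 5395 against 5172.5 UMIs with those nuclei, and 2614 against 2494 features. Astroglia and microglia also had lower UMI medians than SCN neurons in 6 of 6 libraries, so this is not particular to OPCs. At GD17.5 these were 3895 and 2879 against 5111, and for PND30 library 2 they were 2201 and 1575.5 against 3221. Mature oligodendrocytes went both ways, with 3755.5 at GD17.5 and 5837 against 4954 at PND2. Ratios of OPC to astroglial medians also went both ways, from 0.883 to 1.25.

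**Figure D5:**
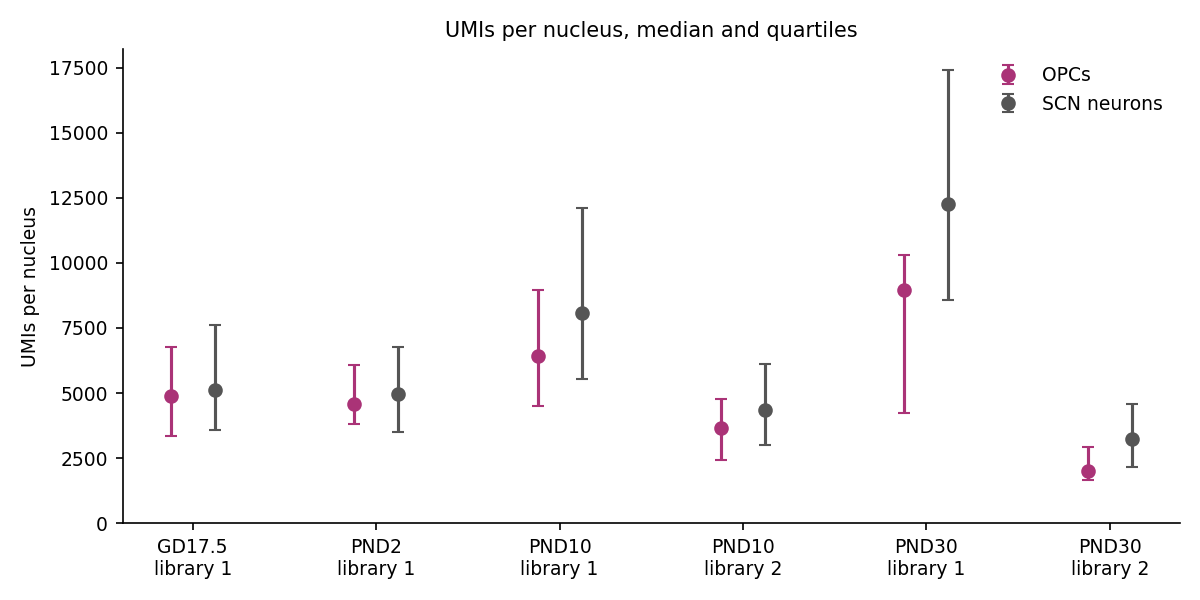
UMIs per nucleus (y axis) of OPCs and SCN neurons in each library (x axis). Points are medians and bars run from the lower to the upper quartile. The median of OPCs is the lower in all 6 libraries, with ratios from 0.955 at GD17.5 to 0.626 in PND30 library 2.

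At equal depth OPC nuclei lay between mature oligodendrocytes and microglia in 6 of 6 libraries, as did SCN neurons and astroglia, so this place is not particular to OPCs. At 1500 UMIs a median of 1078.5 features were detected per OPC nucleus at GD17.5 and 1004 at PND2, with 1007 and 1021 for PND10 and 991 and 1008.5 for PND30. SCN neurons had between 995 and 1020 and astroglia between 1014 and 1071. Mature oligodendrocytes had 922.5 to 1003, the latter in the 4 nuclei of GD17.5, and microglia 1089 to 1122.5. At GD17.5 the OPC nuclei below 4% had 1104 and those at or above it 1016.

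The cluster most like OPCs was sought among those with at least 10 nuclei in the library, a set that differs between stages and leaves out mature oligodendrocytes and mature astrocytes at GD17.5 and PND2. In Pearson correlations across features within a library, it was the immature astrocytes/ependymal cells at GD17.5 (0.445) and PND2 (0.624), where the OPC sums include the nuclei below 4%. In the profiles of equal numbers of nuclei given above, nuclei at or above 4% correlated more with SCN neurons than with immature astrocytes/ependymal cells. At PND10 the cluster most like OPCs was the mature oligodendrocytes in both libraries (0.594 and 0.504). With log2(CPM + 10), however, unidentified neurons came first in library 2, at 0.634 against 0.627. At PND30 neuronal clusters were nearest, extra-SCN neurons in library 1 (0.504) and Vip+ neurons, a major class of SCN neuron, in library 2 (0.449, with extra-SCN neurons at 0.448, which came first with log2(CPM + 10)), above mature oligodendrocytes at 0.468 and 0.423. Values between libraries differ in depth and cannot be set against each other.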

How the data were processed

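The authors aligned reads with Cell Ranger 5.0.1 to mm10 and deposited raw UMI counts per feature and barcode, with no normalization, and a table of clusters made with Seurat 4 once shallow nuclei, likely doublets and nuclei rich in mitochondrial or ribosomal reads had been taken out. Clusters were used as annotated. Nuclei were placed in libraries by barcode. The members and lists were chosen with earlier results of these data known, and the 4% value, the counts that rest on it and the equal draws were chosen after seeing the data. UMIs were summed per library and class and tested with edgeR 4.0.16 (TMM, filterByExpr), with DESeq2 1.42.0 as an alternative, in R 4.3.3. Other steps used Python 3.11.15, numpy 2.4.6 and scipy 1.17.1. The edgeR fits were tested on simulated data with 200 changed features each. At a log2 difference of 2, 89% were recovered for PND10 against PND30. At 1 log2 unit per stage, 96.5% were recovered for the OPC slope. For the difference from SCN neurons it was 65.5%, and from astroglia 81%. The simulation used the fitted spread and did not model a cluster of mixed nuclei. Class features were ranked by log2(CPM + 10) among features with at least 50 CPM. Clusters with under 10 nuclei were left out of the comparison of OPCs with other clusters, which used log2(CPM + 1). Profiles between libraries and between the sides of 4% used log2(CPM + 10). The ranking of 5 classes kept mature oligodendrocytes at the early stages, with 4 and 7 nuclei. Genes were to be named only if a file paired rows with names. OPC nuclei with under 1500 UMIs, 1 and 2 at the early stages, 21 in PND10 library 2 and 10 in PND30 library 2, were not scored.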

Additional observations from a re-analysis of the deposited data

Results flagged for a closer look

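The change over the stages differed between OPCs and the other classes of the same libraries in a test of the difference itself. In edgeR interaction tests, 1576 features differed in slope between OPCs and SCN neurons and 736 between OPCs and astroglia. The part of the nuclei below 4% in these counts was not tested apart from the selection by PND10 features. Counts without these nuclei are given above.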

How the results depend on the processing

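The difference in OPC share between PND10 and PND30 was 6.48 percentage points without extra-SCN and unidentified neurons and 11.2 among glial, microglial and endothelial nuclei. The log2 ratio of UMIs to SCN neurons was -0.195 for features, -0.265 with only nuclei at or above 4% and between -0.368 and -0.246 with 1 library left out, where 5 pairs cannot reach an exact p under 0.0625. For PND10 against PND30, the calls were 13 with DESeq2, 71 without a filter, 4 with thinned nuclei, 12 with equal numbers of nuclei, 40 with nuclei at or above 4%, 20 with as many drawn from all and 26 to 50 without 1 library. With the replicate block there were 97, 67 of them higher at PND30. Deviations of same-numbered libraries correlated at 0.0114, so the numbers were not shown to pair the libraries. For the slope, the calls were 430 of 3439 features with thinned nuclei and 259 of 1860 with equal numbers. The main test gave 1257 of 8808. Nuclei at or above 4% gave 378 of 7049 and as many drawn from all 728 of 7102. On log2 days after conception there were 724 of 7892, and without 1 library 356 to 1189. The difference from SCN neurons gave 1025 of 15799 with DESeq2, 674 of 10112 with thinned nuclei and 395 of 12829 with equal numbers. Nuclei at or above 4% gave 745 of 15874, and there were 651 to 1492 without 1 library. The difference from astroglia gave 483 of 12613 with DESeq2, 193 of 5445 with equal numbers and 312 of 12057 with nuclei at or above 4%. Without 1 library there were 316 to 854. The lowest counts without 1 library were those without GD17.5 in all 3 slope tests. Equal numbers mean 15 OPC nuclei per library, the number in PND30 library 1. Other causes of these moves were not tested. No setting tried turned the mean difference in share, ratio or UMIs. In the GD17.5 library the UMI difference turned with only nuclei at or above 4% and with features in place of UMIs.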

Other observations

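Nuclei outside the OPC cluster also reached 4% on the OPC features. Among mature oligodendrocytes these were 3 of 20 in PND10 library 1, 1 of 49 in library 2 and 1 of 70 scored in PND30 library 2. Among immature astrocytes/ependymal cells they were 2 of 474 at GD17.5 and 4 of 657 at PND2. No scored SCN neuron of the PND10 libraries reached it, of 472 and 2349, which allows a share of up to 0.636% and 0.128%. In PND10 library 2, 6 nuclei of the OPC cluster were below 4%. Their medians were 2.77% on OPC features and 1.53% on astroglial features, against 7.53% and 0.200% in the others. The 6 nuclei were not uniform. Their shares on OPC and astroglial features were 0.667 and 3.93%, 1.07 and 2.73%, 2.2 and 2.33%, 3.33 and 0.4%, 3.47 and 0.733%, and 3.93 and 0.333%. The 50 features most specific to the nuclei below 4% at PND2 took a median of 0.567% of UMIs in these 6 nuclei and 0.0667% in the 241 others of that library.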
